A study of Rattus norvegicus with 6 samples.

Results

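Cells sense oxygen through hypoxia-inducible factors (HIFs), and 10 genes of that pathway were followed here in rat chondrosarcoma cells and rat rib tissue. They were the HIF subunit genes Hif1a, Epas1 and Arnt, the oxygen sensor genes Egln1 and Egln3, the ubiquitin ligase gene Vhl, and the HIF target genes Vegfa, Bnip3, Ca9 and Slc2a1. They were chosen by name, not by a measured value, from 27217 genes in the table, though earlier results of these data were known. Of the 10, 9 were found by symbol and 1, Ca9, stood in the table as Car9 and was found through its Entrez identifier. RNA had been sequenced from 3 libraries of RCS cells, a line of rat chondrosarcoma cells, and from 3 libraries of neonatal rat rib, a tissue piece whose parts the labels do not name. No treatment, oxygen level, strain or genotype is given for either group, and the replicates are described as biological with no culture or animal named, so p-values measure only the spread between these libraries.

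In cells with enough oxygen, the prolyl hydroxylases encoded by the Egln genes modify the alpha subunits made from Hif1a and Epas1, and the VHL protein then marks them for destruction. When oxygen falls, the alpha subunits persist, pair with the partner encoded by Arnt and switch on genes for blood vessel growth, glucose uptake, pH control and mitochondrial turnover. Growth plate cartilage has no blood vessels, and in mice chondrocytes need Hif1a to survive in its interior. Because the alpha subunits are controlled largely as proteins, transcript levels do not report their activity.

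Levels are normalized counts, that is, reads per gene divided by 1 factor per library. They were not divided by gene length, so a gene can be compared between libraries but not with another gene. The estimated depth per library was 6000000 to 8520000 reads for RCS cells and 5320000 to 7490000 for rib, and the smallest values listed above 0 were just over 1 normalized count. Cartilage markers were abundant in both groups. The sum over 9 genes was 60061 to 81013 normalized counts in RCS cells, against 107143 to 175778 in rib, a gap that rests on Col2a1. Without it the sums overlapped, at 49281 to 64212 in RCS cells and 51548 to 78183 in rib. Markers of endothelium, skeletal muscle and fibroblasts set the groups apart. The sum over 8 endothelial genes was 24.5 to 51.4 normalized counts in RCS cells, against 2521 to 4051 in rib. Over 9 skeletal muscle genes it was 184 to 232 in RCS cells, against 19280 to 36967 in rib, and over 7 fibroblast genes 194 to 222 in RCS cells, against 42252 to 81087 in rib. Osteoblast markers lay closer, with a sum over 5 genes of 1277 to 1381 in RCS cells, against 1430 to 4092 in rib. Of these, Alpl and Sp7 overlapped between the groups. In rib tissue as a bulk sample, fewer cells of a type and less RNA per cell cannot be told apart.

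Egln1 and Vhl were higher in RCS cells, while Egln3 and all 3 subunit genes were lower, with Epas1 at 2 reads or fewer per library. The products of Egln1, Vhl and Egln3 all limit the alpha subunits, so genes of that role differed in both directions. Among the targets, Vegfa, Bnip3 and Car9 were lower and Slc2a1 did not pass the test. All 10 genes passed the filter on low values, Epas1 only through rib tissue. In limma with Benjamini-Hochberg adjustment over all 16809 genes tested, 2 of the 10 were higher in RCS cells, where 32.9% of all tested genes were, and 7 were lower, where 43.6% were (9 called either way, beside 76.5%). The 7 include Epas1, whose direction the filter fixed. Of all tested genes, 2971 would likewise not have passed on RCS cells alone, and 2697 of those were called lower. The groups did not overlap at 9 of the 10, against 78.9% of all tested genes, so the counts of called and separated members are close to the background. The median difference of the 10 was -0.74 (RCS cells minus rib tissue, log2), beside -0.15 for all tested genes. Calls in favour of RCS cells made up 43.0% of all calls, but 61.9% with quantile normalization and 53.5% under median scaling, which moved the median gene towards RCS cells by 0.52 and 0.29. The calls for the 10 genes were kept under these settings, except that of Vegfa under median scaling.

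**Figure D1:**
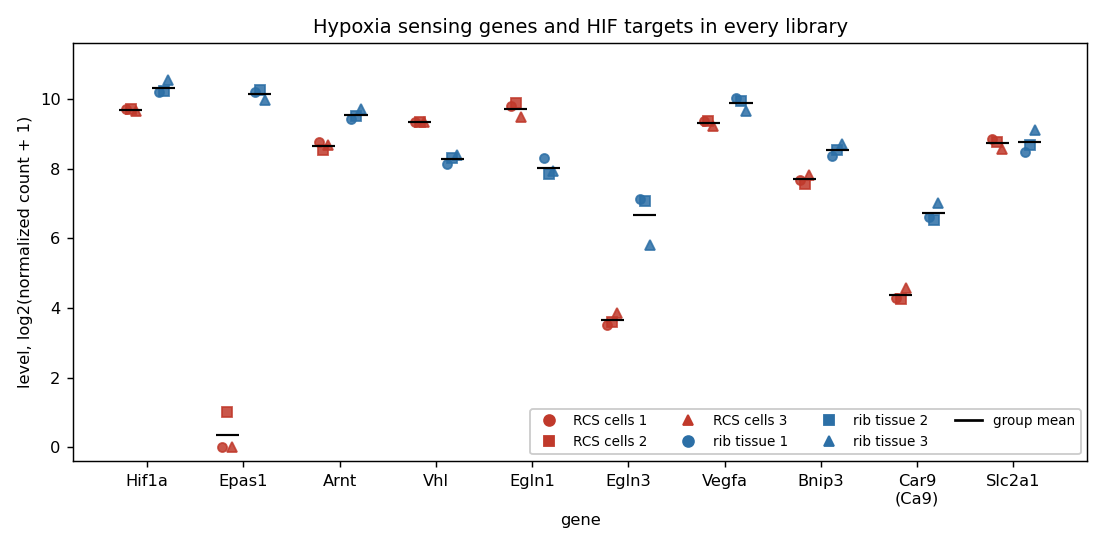
The level of each of the 10 genes, as log2(normalized count + 1), in every library, with RCS cells in red, rib tissue in blue, marker shapes for replicates 1 to 3 and black bars for group means (n = 3 each). Values listed as 0 are drawn at 0. Egln1 and Vhl lie higher in RCS cells, Epas1 lies at 0 to 1.03 there and at 9.96 to 10.27 in rib tissue, and at Slc2a1 the groups overlap.

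Hif1a, which encodes the widely expressed alpha subunit, had 836, 844 and 802 normalized counts in RCS cells, against 1168, 1197 and 1492 in rib tissue. Every RCS library lay below every rib library. The gene was 1.54-fold lower in RCS cells (difference -0.63, SE 0.10, 95% interval -0.87 to -0.39, limma adjusted p = 0.00066). Of all tested genes, 39.5% had a difference at least as far below 0. The 3 genes with the most similar profile over the 6 libraries, by root mean square distance between profiles centred on their means, were Ccdc6 (0.038 log2), Lnx1 (0.044) and Slc30a7 (0.045).

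Epas1, which encodes the alpha subunit best known from endothelial cells, was listed at 0 in RCS cells replicates 1 and 3 and at 1.04 normalized counts in replicate 2, against 1176, 1231 and 998 in rib tissue. The value of 1.04 stands for 2 reads, and its exact Poisson 95% interval, which covers counting error only, runs from 0.126 to 3.75 normalized counts. Set against the rib mean of 1135, that library was 1094-fold lower, with a counting interval of 303-fold to 9032-fold. The gene was tested only through rib tissue, so lower was the sole direction open to it and its p is not given. The fitted difference of -9.80 depends on the pseudocount (-12.30 to -6.79 over the alternatives). Of 8 endothelial markers, Cdh5, Tie1, Kdr, Emcn and Cldn5 were listed at 0 in every RCS library, while Pecam1 had 1.63 to 9.92 normalized counts there, Tek 3.86 to 11.1 and Esam 19.0 to 32.7. Markers of other cells were at 0 in all RCS libraries too, namely 3 of 6 for macrophages, 2 of 8 for red blood cell precursors and 1 each for fibroblasts, skeletal muscle and adipocytes. The part of any of these cells in the Epas1 difference was not tested. The most similar profiles were those of Cdh11 (root mean square distance 0.024 log2), Svep1 (0.11) and Sparcl1 (0.159), which had the same mean of 0.34 log2 in RCS cells and 10.10, 10.33 and 9.84 in rib tissue. With so low a mean in RCS cells, these genes too passed the filter only through rib tissue. Their likeness to Epas1 in RCS cells is a likeness of values at or near 0.

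Arnt, the shared partner of both alpha subunits, had 434.0, 369 and 407 normalized counts in RCS cells, against 688, 735 and 837 in rib tissue. The groups were apart, and the gene was 1.86-fold lower in RCS cells (difference -0.90, SE 0.10, limma adjusted p = 6.32e-05). A difference at least as low was found at 34.9% of all tested genes.

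Egln1 encodes the main prolyl hydroxylase that acts on the alpha subunits in normal oxygen. It had 892, 946 and 715 normalized counts in RCS cells, against 317, 230.3 and 244 in rib tissue. All RCS libraries were above all rib libraries. The gene was 3.23-fold higher in RCS cells (difference 1.69, SE 0.15, 95% interval 1.35 to 2.03, limma adjusted p = 1.47e-05), and 5.88% of all tested genes had a difference at least as high.

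Egln3 encodes a related hydroxylase and is itself a known HIF target. It had 10.3, 11.2 and 13.5 normalized counts in RCS cells, against 139, 135 and 55.0 in rib tissue. The lowest rib library was still above every RCS library, but rib tissue replicate 3 lay well under the other rib libraries. The gene was 8.12-fold lower in RCS cells (difference -3.02, SE 0.36, 95% interval -3.85 to -2.19, limma adjusted p = 9.23e-05). Without rib tissue replicate 3 the difference was -3.46, and under quantile normalization it was -1.79. In the main fit, 16.7% of all tested genes had a difference at least as low as that of Egln3. The library with the low Egln3 value also had the lowest rib sum of every marker list but cartilage, for example over muscle (19280 against 36967 and 29396 in replicates 1 and 2), endothelial (2521 against 3235 and 4051), erythroid (445 against 2008 and 1200) and adipocyte markers (1114 against 2257 and 2407). Their part in the Egln3 value was not tested.

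Vhl encodes the part of the ubiquitin ligase that recognizes hydroxylated alpha subunits. It had 651, 649 and 647 normalized counts in RCS cells, against 283, 313 and 338 in rib tissue. Its RCS values were the tightest of the 10 genes on the log2 scale (SD 0.0046), and the groups were apart. The gene was 2.09-fold higher in RCS cells (difference 1.06, SE 0.09, 95% interval 0.86 to 1.26, limma adjusted p = 9.07e-06). A difference at least as high was found at 13.2% of all tested genes.

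**Figure D2:**
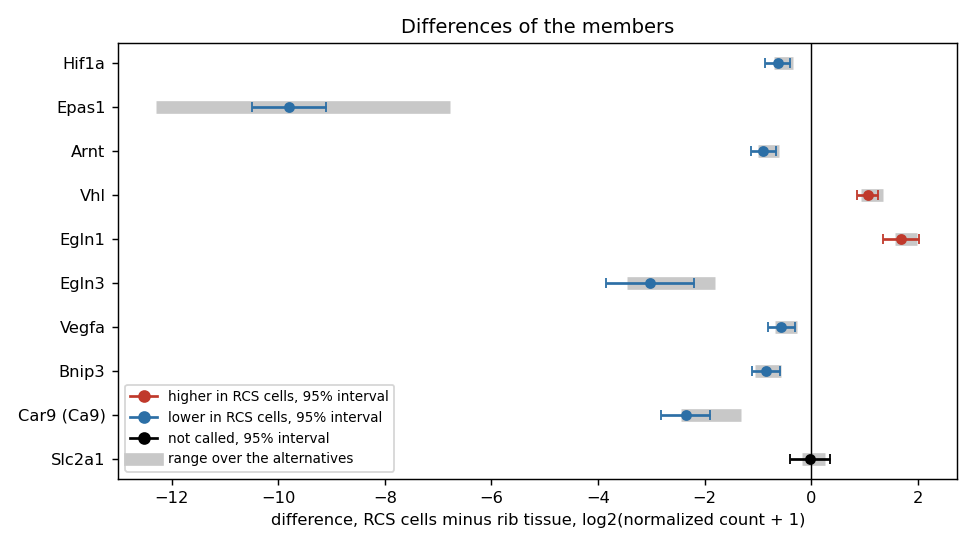
The difference of each gene, RCS cells minus rib tissue, on the log2(normalized count + 1) scale, as points with 95% intervals from limma (red for higher, blue for lower, black for not called), over grey bars for the range of 16 alternative settings. Egln1 (1.69) and Vhl (1.06) lie right of 0 with their grey bars, Epas1 (-9.80), Egln3 (-3.02) and Car9 (-2.35) lie farthest left, and the interval of Slc2a1 spans 0.

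Vegfa encodes the main growth factor for blood vessels. It had 659, 655 and 604 normalized counts in RCS cells, against 1043, 993 and 801 in rib tissue. Every RCS value was lower, and the gene was 1.47-fold lower in RCS cells (difference -0.56, SE 0.11, 95% interval -0.81 to -0.30, limma adjusted p = 0.00169). The call was lost under median scaling (-0.26), where the limma adjusted p was 0.0503, within a range of 0.000285 to 0.0503 over 16 alternatives. In the main fit, 40.8% of all tested genes had a difference at least as low as that of Vegfa. The closest profiles were those of Rnf19b (root mean square distance 0.023 log2), Ccdc80 (0.031) and SBSN (0.046).

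Bnip3 encodes a mitochondrial protein that takes part in the removal of mitochondria. It had 205, 189 and 226 normalized counts in RCS cells, against 331, 372 and 418 in rib tissue. Its mean in RCS cells was 0.556 of that in rib tissue, without overlap (difference -0.85, SE 0.11, limma adjusted p = 0.00019).

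Car9 encodes a carbonic anhydrase of the cell surface that is widely used as a marker of hypoxia in tumours. It had 18.4, 18.3 and 22.6 normalized counts in RCS cells, against 97.5, 91.2 and 128 in rib tissue. The groups were apart, with a 5.10-fold lower level in RCS cells (difference -2.35, SE 0.20, limma adjusted p = 1.22e-05). Under quantile normalization the difference was -1.32. In the main fit, 21.0% of all tested genes had a difference at least as low as that of Car9.

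Slc2a1 encodes the glucose transporter found in most cell types and in red blood cells. It had 460.0, 439 and 381 normalized counts in RCS cells, against 354, 412 and 557 in rib tissue. The groups overlapped, with the highest and the lowest value of all in rib tissue. The difference was -0.03 (SE 0.16, 95% interval -0.40 to 0.35, limma adjusted p = 0.888). It turned positive with median scaling (0.26), array weights (0.07) and quantile normalization (0.04), without RCS cells replicate 3 (0.05) and without rib tissue replicate 3 (0.15), and passed the test in none of the 16 alternatives. The sum over 8 markers of red blood cell precursors was 109.5 to 153 normalized counts in RCS cells, against 445 to 2008 in rib, and its part in the Slc2a1 levels was not tested.

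The rib libraries did not vary in step. In rib tissue replicate 3, Hif1a, Arnt, Vhl, Bnip3, Car9 and Slc2a1 had their highest rib value and Epas1, Egln3 and Vegfa their lowest. Its sum of cartilage markers was 175778 normalized counts, against 172574 and 107143 in rib tissue replicates 1 and 2. Without Col2a1 that sum was 78183, against 59654 and 51548, so replicate 3 had the most of the other cartilage markers.

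The bases before the start of each gene were searched for ACGTG and GCGTG, the core letters that HIF dimers bind, on both strands, in the 250 bases upstream of the RefSeq start in the assembly GRCr8. All 10 genes had such a window and Vegfa had 2. ACGTG was found for 3 genes (Hif1a, Bnip3 and Slc2a1) and GCGTG for 4 (Arnt, Egln1, Bnip3 and Slc2a1), 5 genes having either and 5 neither. Of 33469 windows of the same length, 16.6% held ACGTG, 25.9% held GCGTG and 36.7% held either. The windows of 4 genes are shown because they pair each direction of change with the motifs, Bnip3 and Egln3 being lower in RCS cells, Egln1 higher and Slc2a1 not called. They are given 5′ to 3′ on the strand of the gene, with matches on either strand in capitals, as credited to RefSeq. Bnip3 lies on the minus strand at chr1:203154963-203155212, Egln3 on the minus strand at chr6:77411016-77411265, Egln1 on the minus strand at chr19:69804682-69804931 and Slc2a1 on the plus strand at chr5:138002272-138002521.
Bnip3: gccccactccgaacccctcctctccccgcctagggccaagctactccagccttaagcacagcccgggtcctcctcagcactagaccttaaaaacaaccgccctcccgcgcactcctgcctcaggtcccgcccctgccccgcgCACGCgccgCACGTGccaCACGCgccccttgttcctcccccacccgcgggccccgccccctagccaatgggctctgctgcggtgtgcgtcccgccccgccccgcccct
Egln3: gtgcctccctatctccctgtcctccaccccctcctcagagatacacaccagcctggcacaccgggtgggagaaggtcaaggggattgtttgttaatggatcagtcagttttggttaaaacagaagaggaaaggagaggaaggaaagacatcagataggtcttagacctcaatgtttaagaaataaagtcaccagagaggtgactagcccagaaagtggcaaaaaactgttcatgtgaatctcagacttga
Egln1: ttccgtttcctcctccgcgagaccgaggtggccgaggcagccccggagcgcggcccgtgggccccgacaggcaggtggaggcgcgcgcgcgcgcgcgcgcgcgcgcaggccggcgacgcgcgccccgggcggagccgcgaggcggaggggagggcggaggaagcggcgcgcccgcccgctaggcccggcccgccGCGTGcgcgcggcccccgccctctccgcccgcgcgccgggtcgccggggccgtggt
Slc2a1: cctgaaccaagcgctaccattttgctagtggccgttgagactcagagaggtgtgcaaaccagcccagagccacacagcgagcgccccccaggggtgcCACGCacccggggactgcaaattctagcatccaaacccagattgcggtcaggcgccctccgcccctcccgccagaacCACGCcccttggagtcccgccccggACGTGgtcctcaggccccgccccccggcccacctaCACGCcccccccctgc
In the Bnip3 window the 2 matches to ACGTG, 1 on each strand, overlap in the run CACGTG and begin 98 and 99 bases before the start, with GCGTG on the opposite strand to either side. Slc2a1 had 1 match to ACGTG and 3 to GCGTG, Egln1 had 1 match to GCGTG, and Egln3 had none. Genes with matches were thus found among those that were lower, higher and not called. A match is a string of letters and not a measured binding site. Sequence outside these windows was not searched, so a gene without a match here may have one elsewhere.

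The ratio of 2 genes within a library is not changed by the factor that scales the library, apart from the added pseudocount, and 8 ratios were compared. For 5 of them the groups did not overlap. The ratios with Epas1 are among these, and the filter left lower as the sole direction open to that gene. The log2 ratio of Hif1a to Epas1 was 9.71, 8.70 and 9.65 in RCS cells, against -0.01, -0.04 and 0.58 in rib tissue. Its difference of 9.17 is set by the pseudocount, being 11.67 with 0.1 and 6.16 with 10, since Epas1 was at 0 in 2 RCS libraries. The ratio of Egln1 to Egln3 was 6.30, 6.28 and 5.63 in RCS cells, against 1.18, 0.77 and 2.13 in rib tissue, a difference of 4.71. Every RCS ratio of these pairs lay above every rib ratio. Slc2a1 to Hif1a was higher in RCS cells (-0.86, -0.94 and -1.07, against -1.72, -1.54 and -1.42 in rib, a difference of 0.60), as was Hif1a to Arnt (0.94, 1.19 and 0.98, against 0.76, 0.70 and 0.83 in rib, a difference of 0.27). Epas1 to Arnt was -8.76, -7.50 and -8.67 in RCS cells, against 0.77, 0.74 and 0.25 in rib tissue, and its difference of -8.90 moves with the pseudocount in the same way.

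The other 3 ratios overlapped between the groups. They were Egln1 to Vhl (difference 0.63), Bnip3 to Hif1a (-0.22) and Vegfa to Hif1a (0.07, and -0.16 without rib tissue replicate 3). With 3 libraries against 3, the exact two-sided permutation test cannot give a p under 0.1. That value was reached for Egln1 to Egln3, Slc2a1 to Hif1a and Hif1a to Arnt (0.16 after Benjamini-Hochberg adjustment over 8). The ratios with Epas1 had their direction fixed by the filter, so their p is not given, though the adjustment includes them. For the overlapping ratios the exact permutation p was 0.2, 0.2 and 1.0 (adjusted 0.229, 0.229 and 1.0). None of the 8 could therefore pass a threshold of 0.05.

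**Figure D3:**
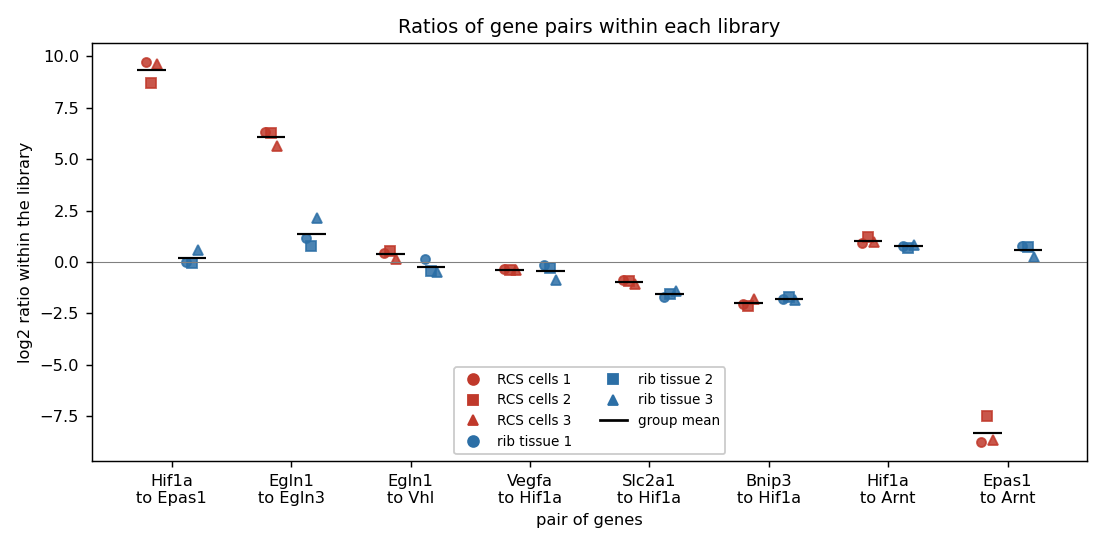
The log2 ratio of 8 gene pairs within each library, with RCS cells in red, rib tissue in blue, marker shapes for replicates 1 to 3 and black bars for group means. The size of a ratio also reflects gene length, so only its difference between groups is read, which is 9.17 for Hif1a to Epas1 (6.16 to 11.67 with other pseudocounts) and 4.71 for Egln1 to Egln3, while Vegfa to Hif1a overlaps.

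Among 14 other components of the pathway, 4 were higher in RCS cells and 10 lower, with a median difference of -0.80 (4 and 9 under quantile normalization, 4 and 8 under median scaling, 2 and 10 under cyclic loess). Without RCS cells replicate 1 or 2 the count of higher genes was 2, and 2 of the 10 lower ones were tested only through rib. The higher ones included Tceb1, which encodes elongin C, a partner of VHL (215, 216 and 217 normalized counts in RCS cells, against 124, 116 and 104 in rib tissue, difference 0.91), and Rbx1, the RING subunit of the same ligase (189, 183 and 180.0, against 149, 134 and 154 in rib, difference 0.34, a call lost under cyclic loess at 0.10 and without RCS cells replicate 1 at 0.32 or 2 at 0.34). Cops5, a subunit of the COP9 signalosome, was 1.91-fold higher (613, 579 and 592, against 317, 326 and 291 in rib). The ligase did not move as a whole, since the scaffold gene Cul2 was lower (209, 217 and 233, against 363, 364 and 355 in rib, difference -0.71).

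Alternative subunits and coactivators were lower. Hif3a, a further alpha subunit gene, had 0 as its listed value in each RCS library and 65.6, 25.9 and 35.4 normalized counts in rib tissue. Arnt2, a relative of Arnt best known from neurons, was also listed at 0 in RCS cells and at 62.3, 63.6 and 88.6 in rib tissue. Both were tested only because of their rib values, so lower was the sole direction open to them. Cited2, which competes with the alpha subunits for coactivators, was 4.35-fold lower in RCS cells (difference -2.12, SE 0.17, limma adjusted p = 8.43e-06). Crebbp, a coactivator gene, was 1.85-fold lower (difference -0.89, SE 0.10) and Hif1an, whose asparaginyl hydroxylase blocks coactivator binding, was 2.17-fold lower (difference -1.12, SE 0.16).

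Over all 96 further genes listed for the pathway and its families, 90 were tested. RCS cells had 13 of them higher and 59 lower, and 18 passed in neither direction, 11 of the lower ones having been tested only through rib, with a median difference of -0.81 beside -0.15 for all tested genes. The shares of all tested genes called higher and lower are those given for the 10 genes. Under median scaling 20 were higher and 46 lower.

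**Figure D4:**
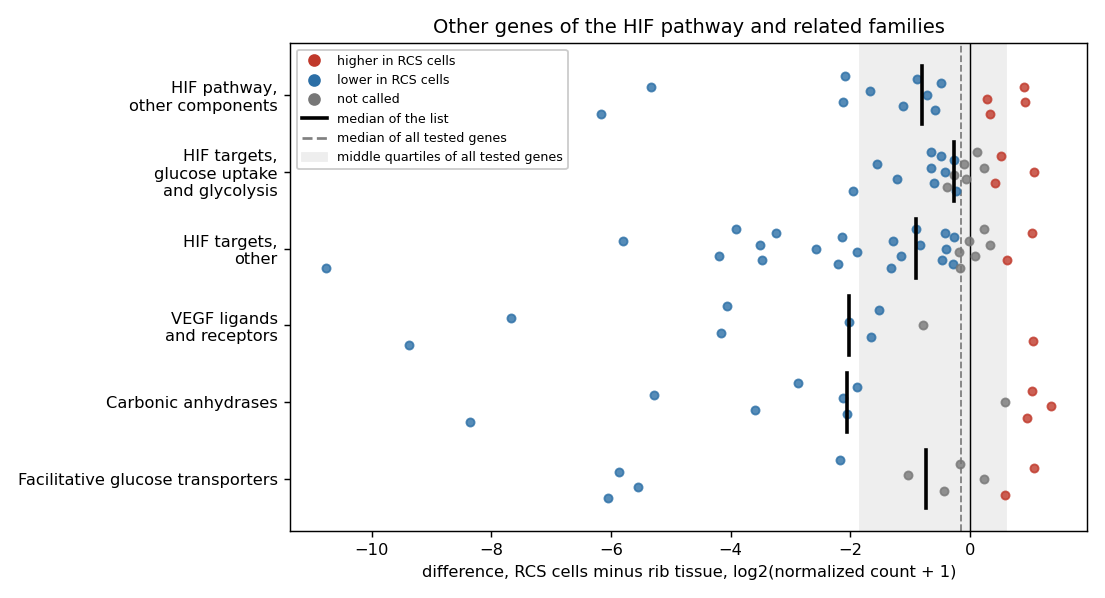
The difference of every tested gene of 6 lists, RCS cells minus rib tissue on the log2(normalized count + 1) scale, in red for higher, blue for lower and grey for not called, with black bars for list medians. The grey band holds the middle quartiles of all tested genes (-1.83 to 0.60) and the dashed line their median (-0.15). The list medians run from -2.05 for carbonic anhydrases to -0.27 for glucose uptake and glycolysis, and each list has genes on both sides of 0.

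Of 19 HIF targets of glucose uptake and glycolysis, RCS cells had 3 higher and 10 lower, 6 did not pass, and the median was -0.27. The counts shifted to 4 and 7 under quantile normalization and 5 and 4 under median scaling. Slc2a3, the glucose transporter best known from neurons, was 2.11-fold higher in RCS cells (55.4, 55.6 and 50.7 normalized counts, against 31.6, 26.8 and 18.3 in rib). Its name stands on a second row of the table too, so its reads may be split. The lactate exporter gene Slc16a3 was 3.84-fold lower (123, 138 and 121, against 515, 415 and 557 in rib) and Hk1, the hexokinase gene of most cells, 2.94-fold lower (difference -1.55, SE 0.11). Aldoc was lower as well (difference -1.21, SE 0.17). Smaller differences were seen at Pgam1 (0.52), Pfkp (0.43, not called under cyclic loess at 0.21), Pkm (-0.41) and Aldoa (-0.65), the calls of Pkm and Aldoa being lost under quantile normalization (-0.16 and -0.41) and median scaling (-0.12 and -0.35) and without some single libraries (-0.33 to -0.36 for Pkm, -0.54 and -0.67 for Aldoa). Glycolytic genes have processed copies in the genome, and no source used here states how reads with several matches were treated.

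Of 29 other HIF targets tested, RCS cells had 2 higher and 21 lower, and 6 passed in neither direction (3 and 17 under quantile normalization, 5 and 16 under median scaling), with a median of -0.89. Lox, the collagen and elastin crosslinking enzyme, was listed at 0 in RCS cells replicates 2 and 3 and at 1.09 normalized counts in replicate 1, against 2531, 2322 and 1850.3 in rib tissue. Ndrg1, a stress-response gene, had 2.18, 5.71 and 4.25 in RCS cells, against 287, 305 and 219 in rib. Edn1, which encodes a vasoconstrictor of endothelial cells, had 0 listed in each RCS library and 19.3, 24.1 and 10.9 in rib tissue. Lox and Edn1 had too few RCS reads to be tested through that group, so lower was fixed for both. Beside them, the sum over 7 fibroblast markers was 194 to 222 normalized counts in RCS cells, with Dcn at 0 and Lum at 75.7 to 85.4, and that over 8 endothelial markers 24.5 to 51.4. The part of such cells in the differences was not tested.

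Plod2, a collagen lysyl hydroxylase gene that chondrocytes also use, was 2.50-fold lower in RCS cells (difference -1.32, SE 0.12). The 2 genes that were higher were Tfrc, the transferrin receptor (2721, 2567 and 2441 normalized counts in RCS cells, against 1523, 1527 and 1965 in rib tissue, difference 0.63), and Car12, a cell-surface carbonic anhydrase like Car9.

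Car12 and Car9 thus moved in opposite directions. Car12 had 1165, 1059 and 1124 normalized counts in RCS cells, against 419, 567 and 658 in rib tissue (2.07-fold higher, difference 1.05, SE 0.15, limma adjusted p = 0.000304), while Car9 was 5.10-fold lower. Of 10 further carbonic anhydrases tested, 2 were higher in RCS cells and 7 lower, 3 of the lower ones having been tested only through rib. With Car12 the counts were 3 and 7, or 4 and 5 under quantile normalization. Car13, a cytosolic enzyme, was higher (56.4, 55.8 and 65.9, against 31.6, 32.3 and 26.8 in rib). Car3, an enzyme of muscle and fat, had 4.90, 3.63 and 4.25 in RCS cells, against 2052, 2107 and 1172 in rib tissue. Ca2, known from red blood cells and osteoclasts, had 0 to 1.52 in RCS cells, against 31.8 to 134 in rib tissue, and Car4, known from capillaries, was listed at 0 in RCS cells, against 5.64 to 22.3 in rib.

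Receptors and relatives of Vegfa were mostly lower. Of 9, 7 were lower in RCS cells and 1 higher, counts that all 3 other scalings gave too, with a median of -2.02. For 3 of the 7, Kdr, Flt4 and Figf, lower was fixed by the filter. The receptor genes Kdr (525 to 821 normalized counts in rib tissue) and Flt4 (142 to 259) and the ligand gene Figf (12.7 to 24.0) were listed at 0 in every RCS library. Kdr is also 1 of the 8 endothelial markers, whose sum was 24.5 to 51.4 in RCS cells, against 2521 to 4051 in rib, and their part in the receptor differences was not tested. The coreceptor genes Nrp1 (373, 361 and 347, against 1181, 1341 and 907 in rib) and Nrp2 (197, 231 and 239.7, against 1016, 948 and 763 in rib) were lower, with log2 differences of -1.64 and -2.02. Vegfc, the ligand of lymphatic vessels, was higher (67.8, 80.4 and 94.1, against 28.4, 61.6 and 31.1 in rib, difference 1.06), a call lost without rib tissue replicate 1 (0.85) or 3 (0.92).

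Among 10 other facilitative glucose transporters tested, RCS cells had 2 higher and 4 lower, and 4 passed in neither direction, with a median of -0.73 (4 and 4 under quantile normalization). Besides Slc2a3, Slc2a8 was higher (209, 230.0 and 235, against 174, 127 and 146 in rib). Slc2a4, the insulin-regulated transporter of muscle and fat, had 5.77, 3.79 and 2.83 in RCS cells, against 505, 423 and 166 in rib tissue, where the muscle marker sum was also lowest in replicate 3. Slc2a9 was listed at 0 in RCS cells and at 50.5 to 61.4 in rib tissue. It was tested only through rib tissue, so lower was the sole direction open to this 1 of the 4 lower genes. Slc2a13 had 3.44 to 7.79 in RCS cells, against 244 to 300.0 in rib. Slc2a10 was 4.47-fold lower (difference -2.16, SE 0.12), and Slc2a6 differed by -0.17 without passing the test, with 0.12 under median scaling and a call as lower under cyclic loess (-0.36) and without rib tissue replicate 2 (-0.28).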

How the data were processed

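RNA sequencing values of 3 RCS and 3 rib libraries were used, grouped by sample title. The deposited values are log2 values in 1 table, whose name carries RPKM. From the values, they were taken to be reads per gene over a library factor, on a log2 scale, since the commonest low values in each library are multiples of 1 step (0.519 to 1.03 normalized counts per read), and not as counts per length. Of values of at most 10 reads, 38.7% to 55.6% lay within 0.01 of a whole read, so whole reads were not recovered and no count model was used. The submitters' processing notes name CASAVA 1.8, DESeq and the build rn5 but give them no role. No source used here states the aligner, counting rule or strand. Identical library pairs numbered 0.

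Log2(normalized count + 1) was tested in R 4.3.3 by limma 3.58.1 (two-sided, moderated variances with an intensity trend) on 16809 genes with at least 1 normalized count in at least 3 of 6 libraries, with calls made where the p adjusted by Benjamini-Hochberg was under 0.05. The fit was tested on simulated data. Folds are differences on that scale and so too small for low genes. None is given where a group mean was below 10, except a ratio with a counting interval for the 2 Epas1 reads. The plan allowed for counts or values per length. The branch for normalized values was used. Same-numbered libraries were not paired (correlation of their deviations from group means 0.064, -0.076 and 0.047). Members and lists were chosen with earlier results of these data known. Of 159 list entries, 158 were found, by symbol or an older symbol, and the row with the highest mean was used where several carried a name. Named list genes were up to 3 called genes in each direction with at least 10 normalized counts in the higher group and the 2 with the highest mean. Cul2, Egln2 and the single cell type markers were named after their values were seen. Alternatives were 3 scalings, 2 pseudocounts, 2 filters, 2 variance models, a replicate block and each library left out. RefSeq names and upstream sequences are those of GRCr8.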

Additional observations from a re-analysis of the deposited data

How the results depend on the processing

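The 16 alternatives left the calls of the 10 members unchanged except for Vegfa, lower in 15 of them and not called under median scaling (-0.26), and Slc2a1, which was called in none and changed sign in 5, at 0.038 (quantile normalization), 0.26 (median scaling), 0.072 (array weights), 0.052 (without RCS cells replicate 3) and 0.155 (without rib tissue replicate 3, the other end of the range being -0.172 without replicate 1). Members lower in RCS cells numbered 6 under median scaling and 7 otherwise. Of the other listed pathway genes, 20 in place of 13 were higher under median scaling, and Slc2a6 turned to 0.12 there. Ratios that involve low genes moved with the pseudocount. At 0.1 and 10, the difference was 11.67 and 6.16 for Hif1a to Epas1 and -11.4 and -5.90 for Epas1 to Arnt, and at 10 it was 4.03 for Egln1 to Egln3. With 1 library left out, Vegfa to Hif1a ran from -0.16 (without rib tissue replicate 3) to 0.21. The cause was not tested. A replicate block gave 12876 calls in place of 12860 and changed no call of a member, and libraries did not each correlate best with their own number. A test on counts was not run, since the table holds no counts. Values near 1 normalized count rest on 1 or 2 reads, so the sizes of differences at Epas1, Lox and other genes at or near 0 in RCS cells are limited by depth.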
